A study of Glycine max with 20 samples.

Results

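The UmamiT family, also called the nodulin MtN21 family, was followed through soybean seed development. Its members were taken from the annotation in the count tables, as every primary model (the first cDNA model listed for a gene) whose Arabidopsis-based description contained "MtN21" or "Walls Are Thin". The rule gave 149 of 55912 primary models, of which 143 had an MtN21 description and 6 a Walls Are Thin description, and 80 further splice variants of these genes were not counted as members. The chromosome number in a model name is that of the soybean chromosome, and chromosome 6 held 22 members, chromosome 4 held 14 and chromosome 8 held 10. The tables gave the EamA-like transporter domain for 131 members, the Triose-phosphate Transporter domain for 4, an AP2 domain beside the EamA-like one for 1, and no domain for 13.

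UmamiT proteins sit in membranes and let amino acids pass down their gradient, so they are best known as exporters that release amino acids from a cell. The developing embryo of a seed has no vascular connection to the mother plant, and the seed coat, a maternal tissue, has to release sugars and amino acids into the space around the cotyledons, which then take them up and store them as protein. In Arabidopsis, family members in the seed coat and endosperm take part in this release. The family took its older name from a gene found in root nodules of Medicago truncatula, and Walls Are Thin was found in Arabidopsis as a vacuolar auxin transporter whose loss leaves fibres with thin secondary walls. No Arabidopsis counterpart of a single soybean model is given in the tables, so the soybean members are called by their model names.

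The plants were of the cultivar Williams and grew in a greenhouse. Their seeds were dissected into cotyledons and seed coats in fresh weight classes of 25 to 50 mg (early, C25 for cotyledons and SC25 for seed coats), 100 to 200 mg (mid, C100 and SC100) and 300 to 400 mg (late, C300, cotyledons only). From powder ground from many beans, footprint (FP) libraries were made from the fragments that ribosomes shielded from nuclease, and control (CT) libraries from fragmented total RNA. There were 2 CT libraries in each of the 5 groups, 2 FP libraries in C25, SC25 and SC100, and 1 FP library in C100 and C300, where FP replicate 2 was not analysed here and FP was not tested. Levels are RPKM, the count of a model scaled to its cDNA length in kb and to the total count of the library. Library totals ran from 7205928 to 32562521 counts, so that 3 counts on a model of 1 kb, taken as the smallest detectable number, were worth 0.0921 to 0.416 RPKM. The labels call the replicates bioreplicates, and 2 libraries a group carry little information on the spread between plants.

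The tissue labels were checked with marker genes. The summed RPKM of 17 seed coat markers (flavonoid pathway enzymes and the seed coat peroxidase) was 128 to 439 in the 8 seed coat libraries and at most 2.56 in 9 of 10 cotyledon libraries. The exception was C25 FP replicate 2, with 41.1 RPKM and 12 of the 17 markers detected, where C25 FP replicate 1 had 0.658 RPKM and 4 markers. The summed RPKM of 32 cotyledon markers (storage proteins and oleosins) was 1516 to 20809 in cotyledons and 19.1 to 457 in seed coats, where SC25 CT replicate 1 (449) stood above SC25 CT replicate 2 (39.5). SC100 CT replicate 1 had counts on 41713 models against 62570 to 71064 in the other CT libraries. Results that rest on these libraries are given below with and without them, and the part these markers or this library breadth play in the other results was not tested.

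Most members stayed below 1 RPKM in the mean of every CT group, 110 of 149 or 73.8%, beside 60.9% of all primary models. No count at all was found for 33 members (22.1%, beside 5594 of the 55912 primary models), and 68 had fewer than 3 counts in every library (45.6%, beside 24.7%). A mean of at least 1 RPKM in some CT group was reached by 39 members, of which 27 reached it only in seed coats, 5 only in cotyledons and 7 in both tissues. As shares of the family these were 18.1%, 3.36% and 4.70%, beside 10.8%, 7.38% and 21.0% of all primary models. In single groups, 28 members reached 1 RPKM in SC25, 22 in SC100, 12 in C25, 5 in C300 and 3 in C100.

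**Figure D1:**
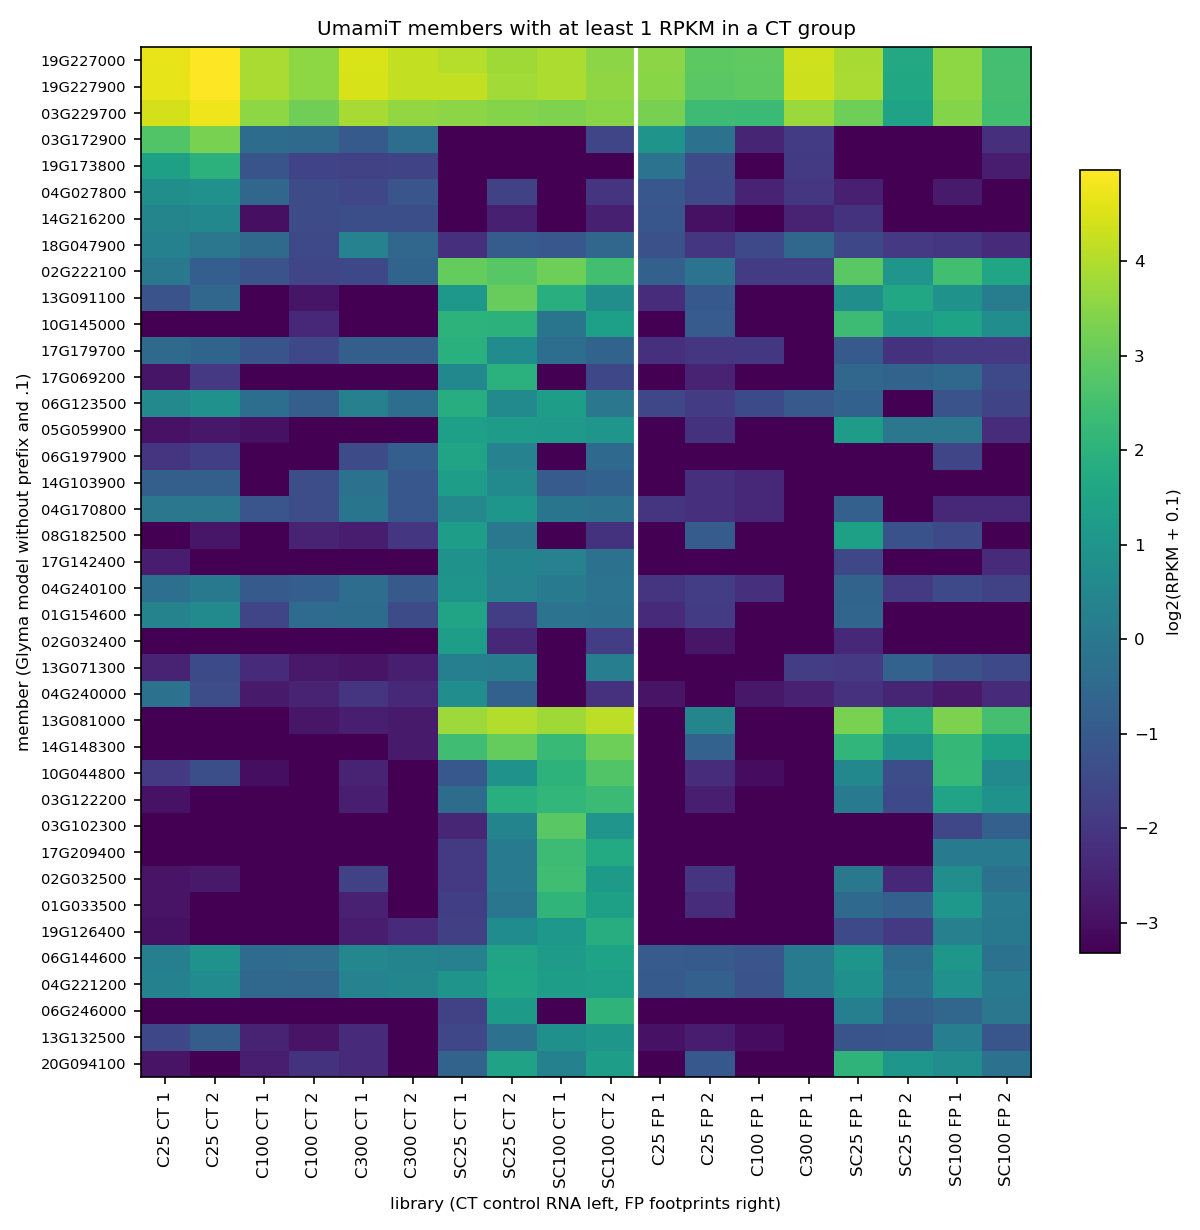
Level of each of the 39 members with a mean of at least 1 RPKM in a CT group (vertical axis) in each of the 18 libraries (horizontal axis), with colour showing log2(RPKM + 0.1) and members ordered by the CT group of their highest mean. The 3 members in the first lines are bright in every library, the next 5 have their highest mean in cotyledons, and the other 31 in seed coats.

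The summed level of the family in control RNA was 118 ± 17.1 RPKM in C25 (SD, n = 2), 46.7 ± 7.17 in C100 and 69.8 ± 9.70 in C300, and 131 ± 13.3 in SC25 and 132.1 ± 3.89 in SC100. These sums are on library totals and depended on the scaling. With TMM sizes, factors that make most transcripts equal, they were 87.7 ± 1.72 in C25, 69.5 ± 0.976 in C100, 99.4 ± 0.186 in C300, 104 ± 29.6 in SC25 and 106 ± 6.83 in SC100, so that C300 was above C25 and no longer below it. What made up these sums differed between the tissues. In cotyledons the 3 most abundant members held 68.9% of the sum at C25, 79.1% at C100 and 77.0% at C300, whereas in seed coats the top 3 held 35.0% at SC25 and 32.1% at SC100. Without Glyma.19G227000.1, Glyma.19G227900.1 and Glyma.03G229700.1, which were the top 3 in each cotyledon group, the sums were 36.6 RPKM in C25, 9.74 in C100, 16.03 in C300, 89.0 in SC25 and 94.6 in SC100. Reads that fit both Glyma.19G227000.1 and Glyma.19G227900.1 were counted at each, so the full sums and the top 3 shares hold such reads more than once. In bulk tissue, fewer cells of a type and less RNA per cell cannot be told apart.

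Glyma.19G227000.1, with an EamA-like domain, was the most abundant member and was present in every library. Its CT levels were 25.8 and 31.0 RPKM in C25, 14.8 and 11.6 in C100, 22.2 and 18.3 in C300, 16.3 and 13.7 in SC25, and 15.3 and 11.4 in SC100. On library totals both C25 libraries were above all other CT libraries, and the remaining groups lay close to each other or overlapped. With TMM sizes both C300 libraries were above both C25 libraries. Glyma.19G227900.1, which lies 9 models further along chromosome 19, followed it with counts that differed by at most 12.96% and by 1.89% in the median over the 17 libraries where either had 50 counts. Reads that fit both models were counted at each, so these 2 members cannot be taken as separate measurements.

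The third of the broadly expressed members, Glyma.03G229700.1, had CT levels of 21.7 and 27.0 RPKM in C25, 11.7 and 8.95 in C100, 14.6 and 12.3 in C300, 11.5 and 10.7 in SC25, and 10.2 and 11.2 in SC100. On library totals C25 was again the highest group, without overlap, but with TMM sizes both C300 libraries were again above both C25 libraries. None of the 3 members passed the edgeR test between tissues, with log2 fold changes in SC25 against C25 of -0.78 (SE 0.36, adjusted p = 0.184) for Glyma.19G227000.1, -0.63 (adjusted p = 0.298) for Glyma.19G227900.1 and -1.002 (SE 0.34, adjusted p = 0.0718) for Glyma.03G229700.1. Without SC25 CT replicate 1 all 3 were called lower in SC25, and without SC25 CT replicate 2 the first 2 turned to 0.03 and 0.21. From C25 to C100, where their mean RPKM went from 28.4, 28.2 and 24.3 to 13.2, 13.4 and 10.3, the fitted log2 fold changes were only -0.11, -0.08 and -0.24 (edgeR adjusted p = 1 for each). The fit scales each library by TMM, and leaving TMM out moved the median over all transcripts in that comparison from -0.14 to -1.11.

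**Figure D2:**
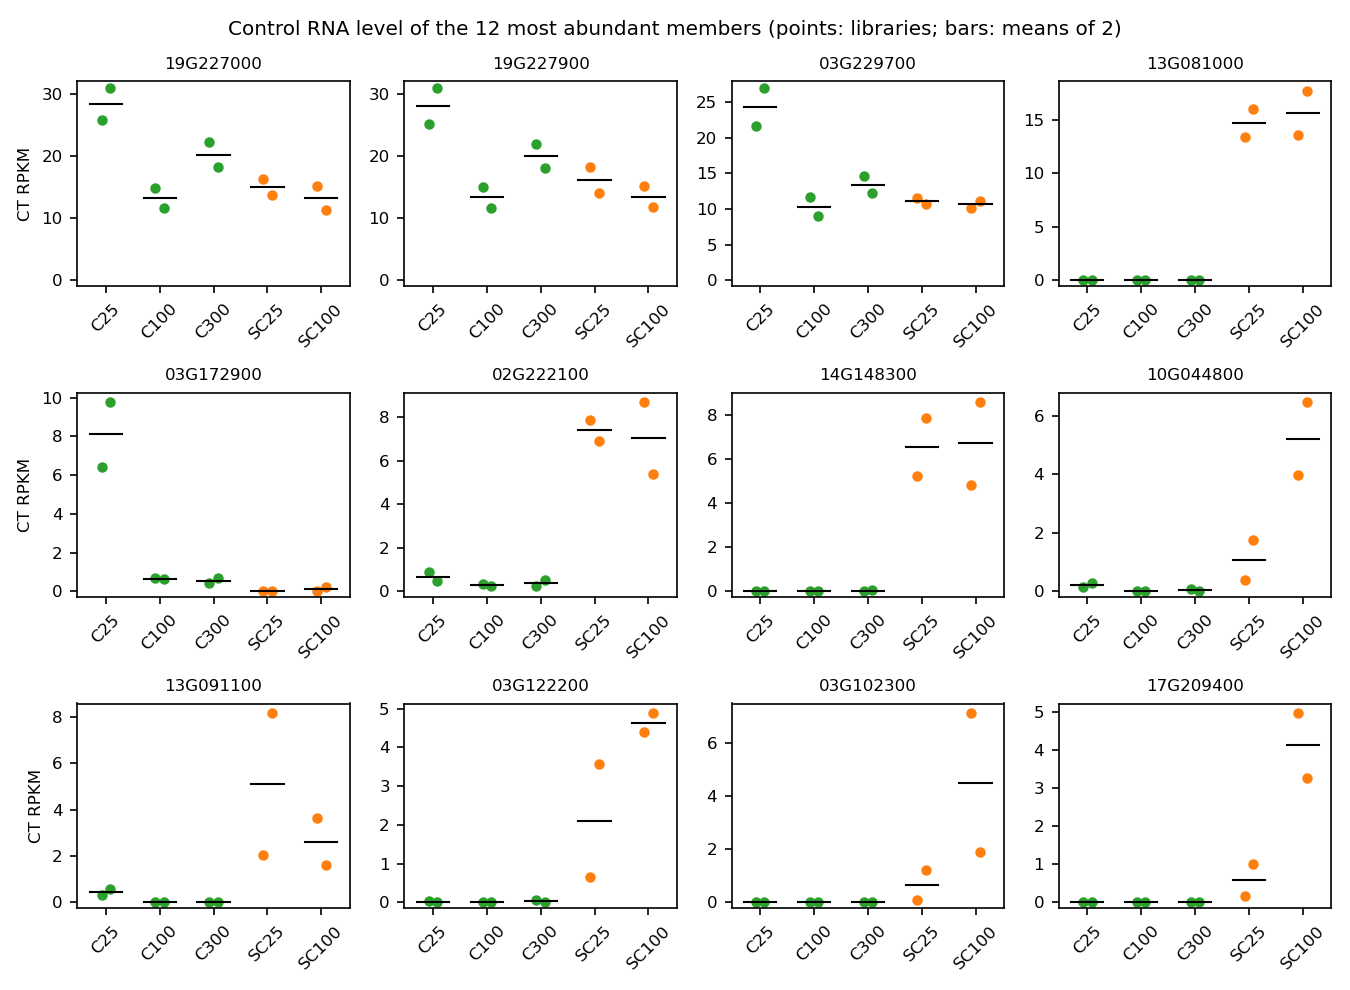
CT level in RPKM (vertical axis) of the 12 members with the highest group means in the 5 tissue stages (horizontal axis), with cotyledons in green and seed coats in orange, 1 point for each library and a bar for the mean of 2. The first 3 panels show members present in both tissues, Glyma.03G172900.1 is high only in C25, and the other 8 members are below 1 RPKM in cotyledons and reach means of 4.13 to 15.6 RPKM in seed coats.

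The next question was which members differed between the maternal seed coat and the embryonic cotyledon at the early stage. In the CT libraries 13 members were higher in SC25 than in C25 and 4 were lower (edgeR, quasi-likelihood test, threshold of 0.05 on the adjusted p). Of the 149 members, 68 had the 10 counts over the 10 CT libraries needed for the test, and 81 were not tested, of which 37 had no CT count and the other 44 had at most 9. The 13 members were 19.1% of those tested, against 6.51% of the 68848 transcripts tested that were higher. The 4 lower members were 5.88% of those tested, against 5.05% of the transcripts tested. Of the whole family they were 8.72% and 2.68%, shares that count untested members and are not to be set against these backgrounds. The median log2 fold change was 1.05 over the 68 members and -0.18 over all transcripts. With members at 0 in 1 tissue set to their bound it was 0.88, over 64 members. A member could pass the count filter through its seed coat libraries alone, and the medians depended on this filter. Without it they were 0.0657 over 112 members and -0.0951 over all transcripts. With at least 10 counts in every library they were -0.0979 over 7 members and 0.0214 over all transcripts.

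Glyma.13G081000.1 was the most abundant seed coat member. It had 13.4 and 15.98 CT RPKM in SC25 and 0 and 0 in C25. Taking 3 counts in each library as the floor, it was at least 128-fold higher in SC25 (edgeR adjusted p = 7.01e-07). Its neighbour in the tables, Glyma.13G081100.1, did not reach 1 RPKM in any CT group.

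Glyma.14G148300.1 and Glyma.10G145000.1 showed the same absence from C25 control RNA. The first had 5.22 and 7.86 RPKM in SC25 and was at least 57.7-fold higher there (edgeR adjusted p = 1.44e-05). The second had 4.01 and 3.94 RPKM and was at least 31.7-fold higher (adjusted p = 0.00087). All 3 are EamA-like MtN21 models, and all 3 were detected in both SC25 libraries and in neither C25 CT library.

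Other members of the seed coat group kept a low level in the cotyledon. Glyma.02G222100.1 had 7.90 and 6.92 RPKM in SC25 against 0.901 and 0.459 in C25, a log2 fold change of 3.50 (SE 0.60, edgeR adjusted p = 0.000814). Glyma.13G091100.1 had 2.03 and 8.18 RPKM in SC25 against 0.330 and 0.571 in C25, a log2 fold change of 3.36 (SE 0.75, adjusted p = 0.00747). Its SC25 libraries differed by more than those of the members above, though neither overlapped C25. The other 8 were Glyma.03G122200.1, Glyma.05G059900.1, Glyma.08G182500.1, Glyma.17G069200.1, Glyma.17G142400.1, Glyma.19G126400.1, Glyma.20G094100.1 and Glyma.02G032400.1, with SC25 means of 0.871 to 2.59 RPKM. The last of these rested on 1 library, with 2.35 RPKM in SC25 CT replicate 1 and 0.0904 in replicate 2, and its adjusted p was 0.0488.

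**Figure D3:**
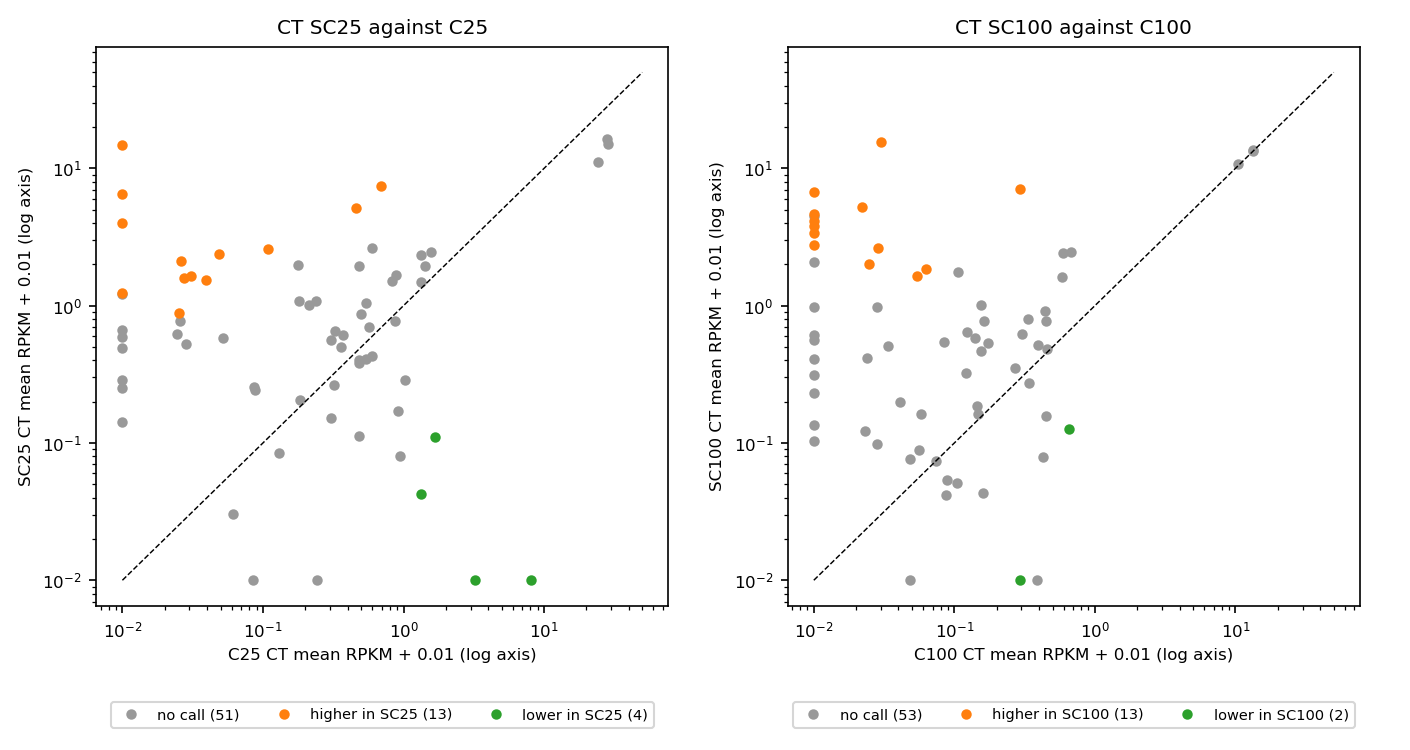
Mean CT RPKM of the 68 tested members in cotyledon (horizontal axis) and seed coat (vertical axis) at the early stage (left) and the mid stage (right), on log axes with 0.01 added so that members at 0 can be drawn. The dashed line marks equal levels, colours mark the edgeR calls, and the 13 higher members of each panel lie in the upper left while the 3 most abundant members lie near the line at the upper right.

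The 4 members lower in SC25 formed an early cotyledon group. Glyma.03G172900.1 had 6.44 and 9.78 CT RPKM in C25 and 0 and 0 in SC25, and was at least 56.0-fold lower in SC25 (edgeR adjusted p = 3.49e-05). Glyma.19G173800.1 had 2.54 and 3.89 RPKM in C25 and 0 and 0 in SC25, and was at least 22.6-fold lower (adjusted p = 0.000752). The C25 levels of both were well above their SC25 floors of 0.145 and 0.142 RPKM.

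The other 2 members of that group were Walls Are Thin models. Glyma.14G216200.1 had 1.27 and 1.35 RPKM in C25 and 0 and 0.0651 in SC25, where it had 1 count in all (edgeR adjusted p = 0.0235). On TMM sizes the ratio of C25 to SC25 was 79.1, with an exact 95% interval from counting alone of 13.8 to 3168. Glyma.04G027800.1 had 1.63 and 1.73 RPKM in C25 and 0 and 0.200 in SC25, where it had 3 counts in all, a ratio of 32.9 (10.9 to 162, edgeR adjusted p = 0.0310). None of the 6 Walls Are Thin members reached 1 RPKM in the mean of any other CT group, and 5 of the 6 had their highest CT mean in C25. The remaining 1, Glyma.11G072800.1, stayed at or below 0.0792 RPKM in the mean of every CT group. Glyma.01G170500.1 and Glyma.17G254700.1, counted among those highest in C25, were also low there, with means of 0.0652 and 0.234 RPKM. Of the 5 Walls Are Thin members tested, 2 were lower in SC25 and 0 higher, against 5.05% and 6.51% of all transcripts.

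With 2 libraries a group, single libraries weighed on these counts. Where 1 library is left in an arm, the fit takes its spread from the other groups and assumes that the lone library varies like them. Without C25 CT replicate 1 or without replicate 2, 8 members were called in SC25 against C25, 6 higher and 2 lower. The 6 were 9.23% and 8.96% of the members tested, against 3.07% and 3% of all transcripts, and the 2 were 3.08% and 2.99%, against 1.59% and 1.68%. The same 8 were called in both cases: Glyma.13G081000.1, Glyma.14G148300.1, Glyma.10G145000.1, Glyma.02G222100.1, Glyma.03G122200.1, Glyma.05G059900.1, Glyma.03G172900.1 and Glyma.19G173800.1. Without SC25 CT replicate 1, the library with more cotyledon marker RNA, 15 members were higher and 5 lower (22.7% and 7.58%, against 7.62% and 4.4% of all transcripts), and 12 of the 17 remained.

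At the mid stage the same comparison was made between SC100 and C100. Again 13 members were higher in the seed coat and 2 were lower, against 3.84% and 4.78% of all transcripts tested, or 19.1% and 2.94% of the members tested. The median log2 fold change was 1.19 over the members, 1.14 with members at 0 set to their bound, and -0.32 over all transcripts. Without a filter on counts it was 0.661 over 112 members and -0.133 over all transcripts. With at least 10 counts in every library it was -0.273 over 7 members and 0.0248 over all transcripts. This comparison depended on scaling: without TMM the median over all transcripts was 0.52, and 18 members were higher and 0 lower (26.5% and 0%, against 7.07% and 1.63% of all transcripts). The 2 tissue comparisons share no library, but all CT libraries were fitted together, with a common count filter and a spread pooled over groups. The 2 lists are therefore not independent. Of the 13 higher members, 8 were the same (61.5% of each list), as were both lower members of the mid stage. The overlap over all transcripts is not given, so this share has no background to be set against.

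Glyma.13G081000.1 kept its lead, with 13.6 and 17.7 CT RPKM in SC100 against 0 and 0.0405 in C100, where it had 1 count in all, a ratio of 506 on TMM sizes (exact 95% interval from counting alone 90.4 to 20018, edgeR adjusted p = 2.88e-06). Glyma.14G148300.1 had 4.85 and 8.60 RPKM in SC100 and 0 in both C100 libraries, and was at least 65.7-fold higher (adjusted p = 4.49e-05). Glyma.02G222100.1 had 8.72 and 5.40 RPKM against 0.331 and 0.234 (log2 fold change 3.73, SE 0.64, adjusted p = 0.0011). The levels of these 3 members in SC100 overlapped those in SC25.

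A second set of seed coat members had a higher CT mean in SC100 than in SC25. Glyma.10G044800.1 had 3.96 and 6.47 RPKM in SC100 against 0.0240 and 0 in C100, where it also had 1 count, a ratio of 199.8 (35.4 to 7933, edgeR adjusted p = 0.000267). Glyma.03G122200.1 had 4.39 and 4.89 RPKM and was at least 45.3-fold higher than in C100, where it had no count (adjusted p = 0.000559). Glyma.02G032500.1 had 5.31 and 2.21 RPKM and was at least 33.1-fold higher (adjusted p = 0.00359). In SC25 these 3 members had lower levels, with 0.382 and 1.76, 0.658 and 3.56, and 0.167 and 0.968 RPKM, and in each case SC25 CT replicate 2 was the higher of the pair.

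Glyma.01G033500.1 was at least 28.8-fold higher in SC100 than in C100 and Glyma.17G209400.1, a short model of 549 bases, at least 13.5-fold (edgeR adjusted p = 0.00374 and 0.0306). Glyma.03G102300.1, the shortest EamA-like member with 357 bases, had 7.14 and 1.89 RPKM in SC100 and no count in cotyledons, and its adjusted p of 0.0672 missed the threshold. Both lower members of the mid stage were barely present in either tissue. Glyma.03G172900.1 had 0.666 and 0.628 RPKM in C100 and 0 and 0.232 in SC100, a ratio of C100 to SC100 of 11.2 with 3 counts in SC100 (3.53 to 57.0, edgeR adjusted p = 0.0331), and Glyma.19G173800.1 was at least 1.35-fold lower in SC100 (adjusted p = 0.0346). Neither was called without TMM or without SC100 CT replicate 1, the library with few detected models, and without that library 12 members were higher and 0 lower (17.6%, against 3.31% and 1.85% of all transcripts). Without C100 CT replicate 1, 5 members were higher and 0 lower (7.46%, against 1.39% and 2.17%), and without C100 CT replicate 2, 8 were higher and 0 lower (11.9%, against 1.69% and 2.44%).

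Changes with stage within a tissue were tested next. No member passed the edgeR test between SC100 and SC25, where 0.0378% of all transcripts were higher and 0.0581% lower. At an unadjusted p under 0.05 there were 7 higher and 5 lower members, 10.3% and 7.35% of those tested against 3.44% and 9.4% of all transcripts, and DESeq2 called 0. The smallest p was that of Glyma.10G044800.1, whose SC100 levels of 3.96 and 6.47 RPKM lay above its SC25 levels of 0.382 and 1.76 (log2 fold change 2.58, SE 0.73, adjusted p = 0.218). Glyma.08G182500.1 went the other way, with 2.36 and 0.902 RPKM in SC25 and 0 and 0.132 in SC100, a ratio of SC25 to SC100 of 37.3 with 2 counts in SC100 (10.1 to 311, edgeR adjusted p = 0.257), and so did Glyma.17G069200.1, with 1.35 and 3.83 against 0 and 0.251 RPKM (adjusted p = 0.266). Without SC25 CT replicate 2, 4 members were higher and 6 lower (6.06% and 9.09%, against 4.68% and 12.5% of all transcripts). Without SC100 CT replicate 2, 1 was higher and 5 lower (1.59% and 7.94%, against 1.55% and 9.98%). These shares of members were near or below those of all transcripts.

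In cotyledons no member was called between C100 and C25, where 0.402% of all transcripts were higher and 0.0915% lower. Unadjusted p-values under 0.05 were found for 0 higher and 4 lower members (0% and 5.88%, against 3.82% and 2.52% of all transcripts), and DESeq2 called 1 lower. That member was Glyma.03G172900.1, which went from 6.44 and 9.78 CT RPKM in C25 to 0.666 and 0.628 in C100 and 0.410 and 0.689 in C300. Between C25 and C100 its fitted log2 fold change was -2.62 (SE 0.70, edgeR adjusted p = 0.162, DESeq2 adjusted p = 0.0265), and the levels did not overlap. Glyma.19G173800.1 had the same course, with 2.54 and 3.89, then 0.343 and 0.220, then 0.201 and 0.226 RPKM (-2.49 on the log2 scale between C25 and C100, SE 0.90, adjusted p = 0.485).

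From C100 to C300 no member was called, where 0.061% of all transcripts were higher and 0.00581% lower. An unadjusted p under 0.05 was found for 1 higher and 0 lower members (1.47% and 0%, against 2% and 1.58%), and DESeq2 called 0. That member, Glyma.02G032500.1, was chosen after its values were seen and rested on 1 library, with 0.202 RPKM in C300 CT replicate 1 and 0 in the other C300 and both C100 libraries. The difference between the 2 tissue contrasts, SC100 against C100 and SC25 against C25, was also called for no member. There 0.0305% of all transcripts were higher and 0.11% lower, 4 members were higher and 2 lower at an unadjusted p under 0.05 (5.88% and 2.94%, against 2.44% and 5.19%), and DESeq2 called 0. Members called at 1 stage only are therefore not shown to differ between stages.

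Many members lie next to each other. Runs of members within 10 primary models of the next, in the order of the tables, held 69 of the 149 members in 22 runs. The largest run, 7 members from Glyma.06G111600.1 to Glyma.06G112200.1 with no other model between them, reached at most 0.246 RPKM in any CT group, and the run of 6 from Glyma.04G250600.1 to Glyma.04G251100.1 reached at most 0.550. Other runs held 1 active member beside quiet ones. Of the 4 members from Glyma.01G033500.1 to Glyma.01G033900.1, 1 reached 1 RPKM, with a top mean of 3.36 RPKM in SC100. In the run Glyma.02G032400.1, Glyma.02G032500.1 and Glyma.02G032600.1 the first had its highest mean in SC25 and the second in SC100, and the third had no count in any library.

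Footprints were read to see which of these messages were on ribosomes. The summed FP level of the family was 40.0 and 29.1 RPKM in C25, 96.4 and 32.4 in SC25, 89.8 and 48.1 in SC100, 23.0 in C100 and 59.8 in C300. In each of these groups with 2 FP libraries, FP replicate 2 was the lower of the pair. Glyma.19G227000.1, Glyma.19G227900.1 and Glyma.03G229700.1 had the most footprints in all 3 cotyledon groups. In SC25 Glyma.13G081000.1 took the third place, with 9.74 and 3.44 FP RPKM, and in SC100 it had 9.85 and 5.63.

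Translational efficiency (TE) of a group was its mean footprint level divided by its mean control level in RPKM, each set to at least 0.1, for members with at least 1 CT RPKM. The median TE was 0.206 over 12 members in C25, 0.449 over 28 in SC25 and 0.510 over 22 in SC100. Over all primary models with at least 1 CT RPKM it was 0.208, 0.367 and 0.370. The 2 replicate pairs of each group lay well apart, with member medians of 0.310 and 0.122 in C25, 0.473 and 0.187 in SC25, and 0.581 and 0.318 in SC100. TE depended on scaling, and with TMM sizes the member medians were 0.981, 0.854 and 1.39 beside 1.02, 0.750 and 1.02 for all primary models.

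In the later cotyledon stages, with 1 FP library each, the members left above 1 CT RPKM were few. At C100 the 3 broadly expressed members had TEs of 0.476 to 0.570 beside a median of 0.317 for all primary models. At C300 there were 5 members, and the TEs of Glyma.19G227000.1, Glyma.19G227900.1 and Glyma.03G229700.1 were 1.01, 0.999 and 0.970 beside a median of 0.571. Their TEs at C25 were 0.329, 0.324 and 0.301. The TEs of the 2 Triose-phosphate Transporter members, Glyma.04G221200.1 and Glyma.06G144600.1, were 0.336 and 0.290 at C25 and 0.773 and 0.760 at C300. No test was made at C100 and C300.

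**Figure D4:**
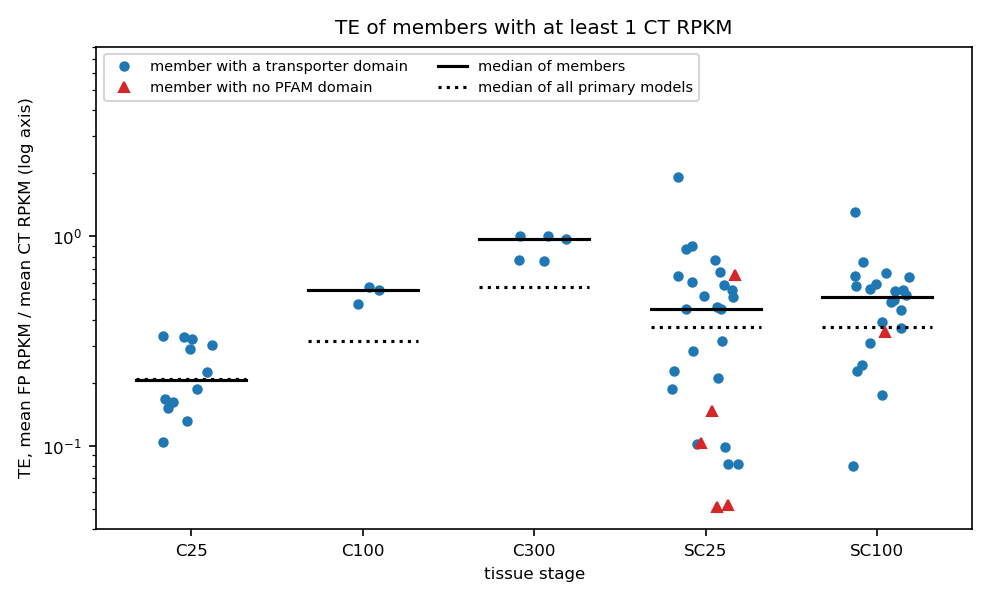
TE on a log axis (vertical) of each member with at least 1 CT RPKM in the 5 tissue stages (horizontal axis), with triangles for members with no PFAM domain, a solid bar for the median of the members and a dotted bar for the median of all primary models. In C25 the bars lie at 0.206 and 0.208, and in SC25 the 26 members with a footprint spread from 0.0816 to 1.92, while the lowest 2 triangles are members without a footprint, placed by the floor of 0.1 RPKM.

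The members with a footprint in SC25 had TEs from 0.0816 to 1.92. Many of the low values rested on few reads, and 6 of the 28 members had at most 3 footprint counts over both SC25 FP libraries. Members without a domain in the annotation are short models, with a median of 451 bases against 1489 for the EamA-like members, and 5 of the 13 reached 1 CT RPKM in SC25. Glyma.06G197900.1 had 2.74 and 1.19 CT RPKM and no footprint, and Glyma.14G103900.1 had 2.38 and 1.46 CT RPKM and also none. For models of 370 and 451 bases, 3 counts in each FP library allow TEs of up to 0.514 and 0.430, so their TEs were not measurable at this depth.

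The median TE of the 5 members without a domain was 0.103 with the floor of 0.1 RPKM and 0.430 with a floor of 3 counts in each FP library, beside 0.449 over 21 EamA-like members with either floor. A lower TE of members without a domain was therefore not detectable. Glyma.17G179700.1, the longest of them with 1070 bases, had 3.70 and 1.54 CT RPKM against 0.411 and 0.130 FP RPKM from 5 counts. The highest TE in SC25 belonged to Glyma.20G094100.1, with 4.13 and 1.96 FP RPKM against 0.516 and 2.65 CT RPKM, so that it was above 1 in 1 pair (8.02) and below 1 in the other (0.738).

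No member was called between FP and CT in either seed coat group by edgeR. In SC25 the background was 0% of all transcripts in both directions, 2 members were higher and 4 lower at an unadjusted p under 0.05 (2.86% and 5.71%, against 1.02% and 4.98% of all transcripts), and DESeq2 called 0. In SC100 the background was also 0% in both directions, 3 members were higher and 0 lower at an unadjusted p under 0.05 (4.29% and 0%, against 2.02% and 1.91%), and DESeq2 called 0. The change in the FP to CT difference from SC25 to SC100 was called for no member either, with a background of 0%, 1 higher and 0 lower at an unadjusted p under 0.05 (1.43% and 0%, against 2.34% and 0.743%) and 0 by DESeq2.

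In C25, 4 members were higher in FP than in CT and 0 lower, where 0.824% of all transcripts were higher and 0.219% lower. They were Glyma.13G081000.1, Glyma.14G148300.1, Glyma.10G145000.1 and Glyma.20G094100.1, all of which were also among the 13 members higher in SC25 CT. Every footprint of these 4 members in C25 came from FP replicate 2, with 1.26, 0.508, 0.422 and 0.384 RPKM, and FP replicate 1 had 0 for each. In C25 CT the first 3 had no count and the fourth had 0.0352 RPKM in 1 library. The edgeR adjusted p-values were 0.005, 0.00598, 0.0128 and 0.0458, although the FP libraries did not both lie above the CT libraries.

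C25 FP replicate 2 was also the library with seed coat marker RNA. The 13 members higher in SC25 CT summed to 4.48 RPKM in it, with 11 of 13 detected, against 0.591 RPKM and 2 detected in FP replicate 1 and 1.46 and 1.28 RPKM in the CT libraries. Relative to the mean of the SC25 FP libraries, this sum was 16.3% in C25 FP replicate 2 and the summed seed coat markers were 14.7%, while in FP replicate 1 they were 2.15% and 0.235%. The 4 calls rested on C25 FP replicate 2, since FP replicate 1 had no footprint of these members. Without replicate 2, the median log2 fold change of FP against CT in C25 was -0.296 over members and -0.394 over all transcripts. With both replicates it was 0.00668 and -0.135. Leaving it out leaves 1 FP library in C25, and what part its seed coat RNA plays was not tested.

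**Figure D5:**
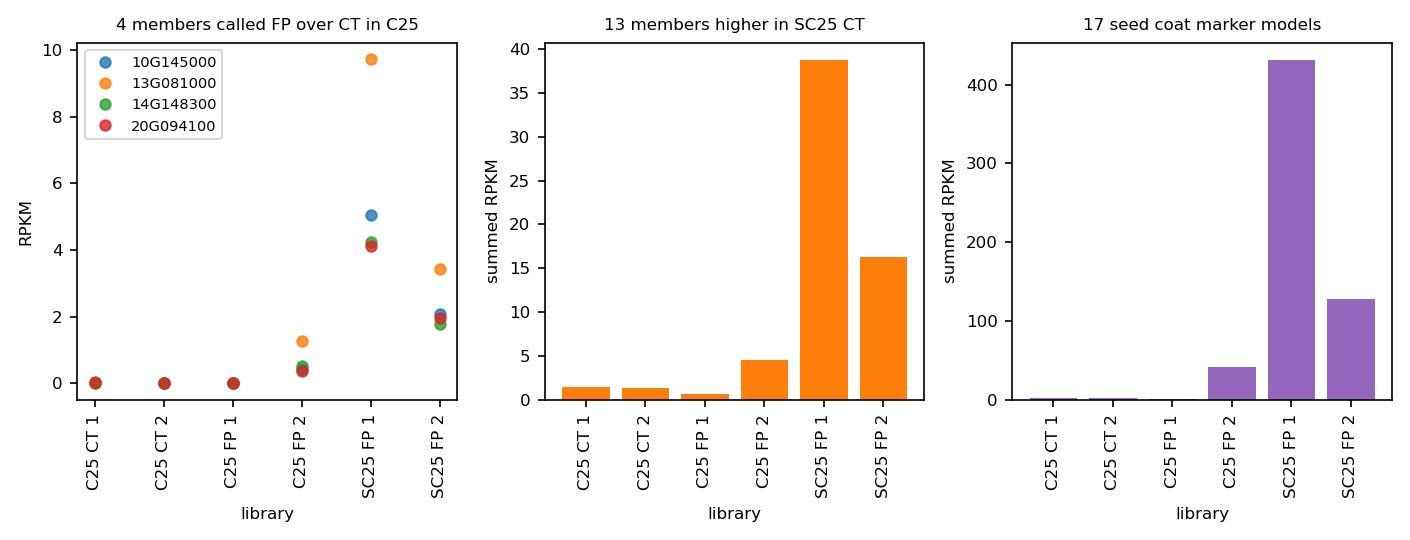
RPKM (vertical axes) in the 4 C25 libraries and the 2 SC25 FP libraries (horizontal axes) of the 4 members called higher in FP than in CT in C25 (left, 1 point for each member), of the summed 13 members higher in SC25 CT (middle) and of the 17 summed seed coat markers (right). Among the C25 libraries FP replicate 2 holds the 4 members at 0.384 to 1.26 RPKM, where the only other value above 0 is 0.0352 for Glyma.20G094100.1 in CT replicate 1, and it has the highest bar in the other panels, 4.48 and 41.1 RPKM.

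The FP libraries were also compared between the tissues directly. Glyma.03G172900.1, with 1.86 and 0.749 FP RPKM in C25 and 0 in both SC25 FP libraries, was called lower in SC25, by at least 5.09-fold (edgeR adjusted p = 0.00507). It was the only member called, of 70 tested, where 0.824% of all transcripts were higher in SC25 and 1.31% lower. At an unadjusted p under 0.05 there were 11 higher and 6 lower members (15.7% and 8.57%, against 7.59% and 5.79%). Glyma.13G081000.1 had 9.74 and 3.44 FP RPKM in SC25 against 0 and 1.26 in C25 (log2 fold change 2.11, SE 0.80, adjusted p = 0.202), and the groups did not overlap.

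Without C25 FP replicate 2, 7 members were higher in SC25 FP and 1 was lower (10% and 1.43%, against 2.4% and 1.42% of all transcripts). They were Glyma.05G059900.1, Glyma.10G044800.1, Glyma.10G145000.1, Glyma.13G081000.1, Glyma.13G091100.1, Glyma.14G148300.1 and Glyma.20G094100.1 above, and Glyma.03G172900.1 below. With the replicate number as a block shared by all groups, 7 members were higher and 2 lower in place of 0 and 1 (10% and 2.86%, against 2.7% and 2.18% of all transcripts). Without C25 FP replicate 1 the median log2 fold change was 0.668 over members and 0.00108 over all transcripts, against 1.33 and 0.0521 with all libraries. Without SC25 FP replicate 1 it was 0 and -0.126, and without SC25 FP replicate 2 it was 1.38 and 0. In the FP comparison of SC100 with SC25 no member was called, with a background of 0% in both directions, 4 higher and 1 lower at an unadjusted p under 0.05 (5.71% and 1.43%, against 1.23% and 1.77%) and 0 by DESeq2.

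The FP to CT difference was compared between SC25 and C25, which asks whether footprints per message differed between the tissues. By edgeR 0 members were called, with a background of 0%, and 0 were higher and 6 lower at an unadjusted p under 0.05 (0% and 8.57%, against 0.557% and 3.31%). The smallest adjusted p was 0.0904, for Glyma.13G081000.1 and Glyma.14G148300.1, whose C25 footprints all came from FP replicate 2. With the replicate block 0 members were called higher and 3 lower (4.29%, against 0.0578% higher and 0.931% lower of all transcripts), namely these and Glyma.10G145000.1, and DESeq2 called the same 3. Without C25 FP replicate 2 the median log2 difference was 0.394 over members and 0.179 over all transcripts, against -0.625 and -0.137 with it.

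Transporters of amino acids from other families were counted for comparison, as 197 primary models described as amino acid permeases, lysine histidine, proline or other amino acid transporters, or glutamine dumpers. Most of these import amino acids with protons. Of 118 tested, 19 were higher and 8 lower in SC25 than in C25 CT, against 6.51% and 5.05% of all transcripts. In SC100 against C100 16 were higher and 9 lower, against 3.84% and 4.78%. Of the 68 UmamiT members tested, 13 were higher and 4 lower early, and 13 and 2 at the mid stage. The median log2 fold changes of the other families were 1.28 and 0.87, beside 1.05 and 1.19 for UmamiT members and -0.18 and -0.32 for all transcripts. Among models that passed the count filter, a higher level in seed coats was thus not particular to UmamiT members. Between FP and CT in C25 3 of 112 were higher and 0 lower, against 0.824% and 0.219% of all transcripts. Of 12 EamA-like transporters without an MtN21 description, 11 were tested, and 0 were higher and 2 lower in the seed coat at each stage.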

How the data were processed

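FP and CT libraries of soybean cotyledons and seed coats were grouped by the tissue, seed weight, library type and replicate in their labels. The authors aligned trimmed reads to the cDNA models of assembly Wm82.a2 with Bowtie version 1 without mismatches, removed ribosomal DNA models, and deposited unnormalized alignment counts on 88515 models, 1 table for each library. A read with several alignments was counted at each, so near-identical members share reads.

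The members and comparison lists were chosen with earlier results of these data known. RPKM was computed from the deposited count, cDNA length and library total. The 10 CT libraries were fitted together, and so were the 12 libraries of C25, SC25 and SC100, with edgeR 4.0.16 (R 4.3.3; TMM, quasi-likelihood test) on transcripts with at least 10 counts in the fit. The Benjamini-Hochberg adjustment ran over the 68848 and 67469 transcripts tested. P-values measure the spread between libraries of a group, pooled over groups, also where 1 library is left in an arm. At least-fold values set a group at 0 to 3 counts in each library, and groups with 1 to 3 counts are given by the ratio of summed counts over TMM sizes with an exact interval. Both cover counting error only.

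The members named are the 12 with the highest CT group mean, up to 3 with the largest change in each direction in each comparison, the 3 with most footprints in each group, and Walls Are Thin members of at least 1 RPKM. Other called members and members used as examples of runs, domains or TE were chosen after their values were seen.

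FP and CT libraries of a replicate came from the same ground powder according to the study's methods, so they are paired. Across transcripts the deviations of FP and CT replicates correlated by -0.0167 in C25, 0.222 in SC25 and 0.129 in SC100. The replicate block was an alternative, as were DESeq2 1.42.0, totals without TMM, other filters and each library left out. For FP against CT and for the FP to CT difference, the block was the pair within a group. For comparisons within CT or within FP it was the replicate number, shared by all groups. The labels do not link equal replicate numbers of different groups. Family sums on TMM sizes and the TE floor of 3 counts were chosen after seeing the data. In simulated counts for SC25 against C25 in CT (68227 transcripts) 33% of log2 changes of 2 and 98% of 4 were recovered. The simulation gave all transcripts the same dispersion and changed none with a low mean count. It therefore does not measure recovery for members with few counts or for libraries that differ more. No 2 libraries of a group agreed within sampling noise. Python 3.11.15 with pandas 2.3.3 and matplotlib 3.10.9 was used. Coordinates and sequences were not used here, since the RefSeq names at hand matched 0 of the models.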

Additional observations from a re-analysis of the deposited data

How the results depend on the processing

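The tissue calls kept their number within 1.5 times under DESeq2, totals without TMM, no filter, primary transcripts only, the replicate block (15 calls at each stage) and fits of the compared groups alone. Under these settings 14.7% to 19.1% of the members tested were higher in SC25 and 4.41% to 7.35% lower. Over all transcripts tested it was 5.42% to 8.27% and 2.52% to 5.59%. In SC100 14.3% to 26.5% of members were higher and 0% to 4.41% lower, against 3.52% to 7.07% and 1.63% to 5.93%. Requiring at least 10 counts in every library kept 0 of the 17 early and 0 of the 15 mid-stage calls. Members with few counts in a tissue then drop out, and 7 were tested. Another member was called at each stage. Glyma.03G229700.1 was lower in SC25 (14.3%, against 10.1% of all transcripts). Glyma.04G221200.1 was higher in SC100 (14.3%, against 6.23%). Leaving out single libraries gave 8 to 24 calls in SC25 against C25 and 5 to 18 in SC100 against C100. Compared with the fit of all libraries, the share of all transcripts called was also larger at the largest of these numbers and smaller at the smallest. The 24 came without SC25 CT replicate 2, where the median log2 fold change was 1.93 over members and -0.282 over all transcripts. The 18 came without SC100 CT replicate 2, where the medians were 0 and -1.18. In SC100 against SC25 no filter gave 1 higher and 1 lower call (0.893% each, against 0.322% and 1.77% of all transcripts). In C100 against C25 DESeq2 gave 1 lower call (1.47%, against 0.231% of all transcripts). Leaving out TMM gave 1 (1.47%, against 0.959%), as did leaving out the filter (0.893%, against 0.296%). The compared groups alone gave 4 lower calls there (10.8%, against 8.87%). They gave 1 higher call in C300 against C100 (3.03%, against 2.61%). The tissue by stage difference had 2 higher calls without the filter (1.79%, against 0.157%).

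For FP against CT in C25, 3 members were higher and 5 lower without TMM (4.29% and 7.14%, against 0.556% and 30.1% of all transcripts). With 10 counts in every library 0 of 4 members were called, against 2.82% higher and 4% lower. The replicate block gave 6 higher and 0 lower (8.57% and 0%, against 2.07% and 0.799%). The FP to CT difference of SC25 against C25 gave 3 lower calls with DESeq2 (4.29%, against 0.322% of all transcripts). The replicate block also gave 3 (4.29%, against 0.931%). It gave 3 lower calls without the filter (2.73%, against 0.768%) and 2 without TMM (2.86%, against 0.153%). FP of SC25 against C25 gave 4 higher and 2 lower calls with DESeq2 (5.71% and 2.86%, against 1.82% and 2.21%). Without TMM 9 were higher and 1 lower (12.9% and 1.43%, against 5.96% and 0.729%). Without the filter 7 were higher and 2 lower (6.36% and 1.82%, against 2.65% and 1.8%). The replicate block gave 7 higher and 2 lower (10% and 2.86%, against 2.7% and 2.18%).

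The median TE of members with TMM sizes was 0.981 in C25, 1.83 in C100, 1.69 in C300, 0.854 in SC25 and 1.39 in SC100, and with totals taken after removal of the top 1% of transcripts by abundance it was 0.913, 1.80, 1.83, 1.08 and 1.24. Libraries left out moved it between 0.202 and 0.547 in SC25.

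Single members turned sign on the log2 scale as follows. Without TMM, SC100 against C100 gave 0.0111 for Glyma.19G227000.1, 0.0118 for Glyma.19G227900.1 and 0.0470 for Glyma.03G229700.1. In C100 against C25 the compared groups alone gave 0.00442 for Glyma.19G227000.1 and 0.0378 for Glyma.19G227900.1, and the latter ran from -0.0859 to 0.0125 with libraries left out. In SC25 against C25 libraries left out gave -1.25 to 0.0257 for Glyma.19G227000.1 and -1.20 to 0.211 for Glyma.19G227900.1. They gave -1.63 to 6.65 for Glyma.20G094100.1 in FP against CT in C25, and -7.28 to 0.699 for Glyma.10G145000.1 in the FP to CT difference. The causes were not tested. Depth limits the 81 untested members, for which a level under the floors given above cannot be told from 0.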
